A study of Mus musculus with 32 samples.

Results

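Pecam1, Cdh5, Cldn5, Tie1, Eng, Esam, Emcn, Ly6c1, Slco1a4 and Vwf are 10 genes commonly read as markers of the endothelium that lines blood vessels, and their RNA was followed in cells sorted from mouse gliomas. They are 10 of the 23337 genes in the count table, each found there by its symbol. They were chosen by their measured CPM, because vessel genes had lower values at the Endpoint stage and higher values at the Rebound stage in the libraries of tumour-associated macrophages (TAM). Their values in TAM are therefore given as a description, with no test, and they were tested only in the tumour cell (TC) libraries of the same series. In TAM the 10 genes did not all follow the same course, and which cells carried them was not tested. Pecam1 and Eng held 81.2 to 96.9% of their summed level in each Endpoint library, Eng was not higher at Rebound, and the other genes lay near the detection limit in many libraries.

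The tumours were raised in XFM mice, the only strain name the labels give, by intracranial injection of DF-1:PDGFB cells at 5 to 6 weeks of age. DF-1 is a chicken fibroblast line, and PDGFB is a chain of platelet-derived growth factor. Mice entered the trial with tumours of 20 to 40 mm3 and received Vehicle or BLZ945 daily until symptoms developed or until 26 weeks of age. BLZ945 inhibits the kinase of CSF-1R, the receptor for the macrophage growth factor CSF-1. PBS-perfused brains were digested with papain, PDGFRA+ cells were sorted as TC, and Cd11b+ Gr.1- cells were sorted as TAM. Neither gate names an endothelial surface protein. The groups are Vehicle (5 TAM and 5 TC libraries), Endpoint under BLZ945, which the labels call dormant (6 and 6), and Rebound under BLZ945 (5 and 5). The libraries come from 17 mice, and 15 of the mice gave both sorts. The agent field of the labels reads BLZ945 for Vehicle libraries as well, so the treatment is taken from the stage. The labels used here say no more about how Rebound was defined or about the genotype behind the strain name.

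Endothelial cells line every blood vessel and hold each other through adherens junctions, built on VE-cadherin, and tight junctions, built on claudins and occludin. In the brain these junctions, together with transporters in the endothelial membrane, form the blood-brain barrier, and brain tumours often have vessels in which the barrier is altered. Several of the proteins used to mark endothelium are also made elsewhere: PECAM1 is found on platelets and many leukocytes, endoglin on macrophages, and von Willebrand factor in megakaryocytes and platelets.

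Levels are CPM, the counts of a gene divided by the library's scaled total in M counts, with the scaling done within each sort. Library totals, in M counts, were 25.6 to 30.4 in TAM Vehicle, 9.54 to 15.8 in TAM Endpoint and 15.4 to 19.6 in TAM Rebound. In TC they were 13.1 to 23.0, 4.18 to 14.0 and 10.5 to 16.5. Every count in the Endpoint and Rebound libraries is an even number, whereas the Vehicle libraries hold odd counts. The smallest count above 0 is therefore 2 in the former and 1 in the latter. The split coincides with treatment, so in every comparison with Vehicle its source and BLZ945 cannot be told apart. Halving the even counts, 1 of the alternatives, does not separate them. The 10 myeloid marker genes summed to 20870 to 68140 CPM in TAM and to 96.5 to 10410 CPM in TC. The 10 tumour cell markers summed to 34.1 to 281 CPM in TAM. In TC they summed to 2651 to 9259 CPM in Vehicle, 362 to 2757 CPM at Endpoint and 2715 to 9008 CPM at Rebound. The 8 myelinating oligodendrocyte markers summed in TC to 3222 to 18360, 22950 to 34290 and 1050 to 18850 CPM. TC therefore names the sort, and the part of the cell mix in stage differences within TC was not tested. Some libraries stood apart. The 10 T and NK cell markers summed to 4072 to 6891 CPM in 5 TC libraries (Endpoint mice 49823, 49825, 49830 and 49831 and Rebound mouse 49827), against at most 39.8 CPM in the other 11. In TAM the same markers reached 119 and 159 CPM in Rebound mice 49041 and 49059. Results that rest on these T and NK marked libraries are given with and without them. Single values are listed in the order of Vehicle mice 54359, 54363, 57098, 57682 and 64247, TAM Rebound mice 49041, 49059, 49827, 49834 and 49849, and TC Rebound mice 49041, 49059, 49692, 49827 and 49849.

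Compared per kilobase of exon, the 10 genes had very unequal levels in TAM. In Vehicle TAM the mean was 8.49 CPM per kilobase for Eng and 3.84 for Pecam1, and the other 8 genes lay between 0.0104 for Emcn and 0.526 for Cdh5. The sum of those 8 genes was 4.56 to 10.04 CPM in the Vehicle libraries, 0.973 to 5.20 CPM at Endpoint and 4.68 to 23.2 CPM at Rebound. The medians were 7.82, 3.08 and 17.6 CPM. In sorted bulk RNA, fewer cells of a type and less RNA per cell cannot be told apart. Over the 10 genes, the median of the group was lower at Endpoint than in Vehicle for 9 genes and equal for 1, and higher at Rebound than at Endpoint for 9 and lower for 1. The ranges overlapped for most of them: 1 of 10 genes lay lower in every Endpoint library than in every Vehicle library, against 11% of the 13315 genes tested in TAM. For Rebound above Endpoint the count was 2 of 10, against 6.95% of genes. These counts restate the choice of the genes and are read no further.

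Among the adhesion and junction genes, Pecam1 (chr11:106654217-106750628, minus strand, GRCm38) had the widest separation in TAM. PECAM1 is an adhesion molecule of endothelial cell borders and of blood cells. Its level was 25.8, 16.5, 25.8, 35.7 and 15.6 CPM in the 5 Vehicle libraries. At Endpoint the lowest, median and highest of 6 libraries were 0.505, 1.63 and 3.55 CPM. At Rebound the 5 libraries had 48.1, 33.9, 5.64, 15.2 and 13.8 CPM. Every Endpoint library was below every Vehicle and every Rebound library, and the Rebound libraries spread on both sides of Vehicle. The group means were 23.9 ± 8.21 (SD, n = 5), 1.75 ± 1.00 (n = 6) and 23.3 ± 17.3 CPM (n = 5), a log2 fold change of -3.77 ± 0.501 (SE) for Endpoint against Vehicle. The fold change of Rebound against Vehicle was -0.03 ± 0.468, and it was -1.05 without the Rebound libraries of mice 49041 and 49059, which had the highest Pecam1 of the Rebound libraries and the highest T and NK marker sums of the TAM libraries.

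Cdh5 (chr8:104101625-104144511, plus strand) encodes VE-cadherin, the cadherin of endothelial adherens junctions. Its TAM level was 0.256, 2.75, 2.84, 3.02 and 2.19 CPM in Vehicle, 0.324 to 2.53 CPM with a median of 1.34 at Endpoint, and 1.97, 2.58, 1.93, 2.71 and 2.55 CPM at Rebound. The lowest value of all was a Vehicle library (mouse 54359, 5 counts), and the 3 stages overlapped. The log2 fold change of Endpoint against Vehicle was -0.67 ± 0.55, the smallest difference among the 4 adhesion and junction genes of the set.

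Cldn5 (chr16:18776847-18778262, plus strand) encodes claudin-5, the main claudin of brain endothelial tight junctions. Its TAM level was 0.102, 0.844, 0, 0.249 and 0.214 CPM in Vehicle, where the highest library held 19 counts. At Endpoint it had 8 counts in all and 4 of 6 libraries were at 0. At Rebound it was 1.75, 2.11, 0, 3.35 and 3.11 CPM. All Rebound libraries but that of mouse 49827, which had no Cldn5 count, were above every Vehicle and every Endpoint library. The log2 fold change was 2.85 ± 1.14 for Rebound against Vehicle and -1.64 ± 1.18 for Endpoint against Vehicle, and the latter was -3.07 without Endpoint mouse 49823. Esam (chr9:37528078-37538319, plus strand), an adhesion molecule of endothelial tight junctions and platelets, had 0.102, 1.42, 0.108, 0.285 and 0.772 CPM in Vehicle and 12 counts in all at Endpoint, with 3 of 6 libraries at 0. At Rebound it had 2.85, 2.70, 0.275, 4.64 and 0.999 CPM. Mouse 49827 was again the lowest of the Rebound libraries, and of the other 4 only mouse 49849 (0.999 CPM) lay inside the Vehicle range.

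**Figure D1:**
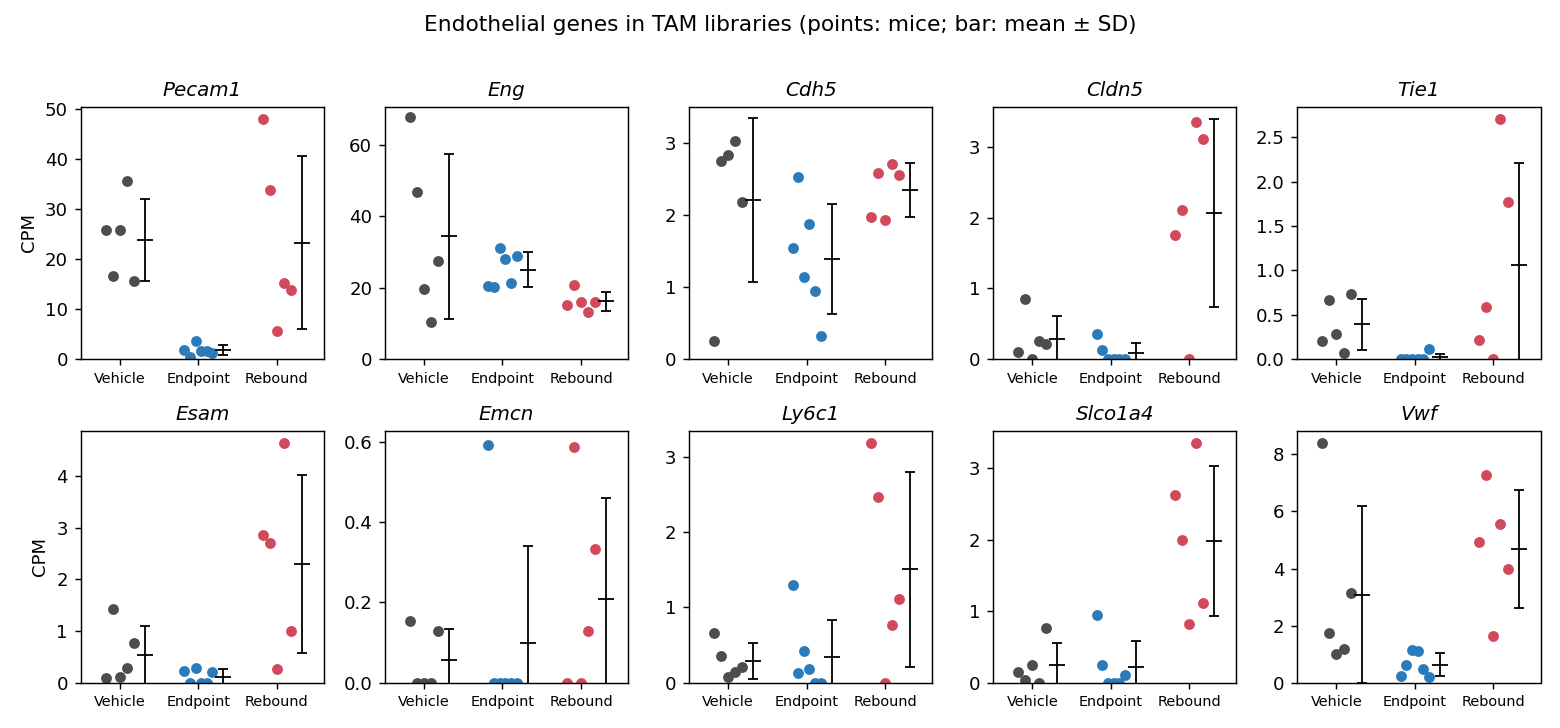
CPM of each of the 10 genes in TAM (y axis, 1 panel per gene with its own scale) in Vehicle, Endpoint and Rebound (x axis). Points are mice and bars give the mean ± SD with the lower end cut at 0. Pecam1 lies at 0.505 to 3.55 CPM in all 6 Endpoint libraries, Eng lies at 13.3 to 31.2 CPM under BLZ945, and Cldn5, Esam, Slco1a4 and Vwf have their highest group median at Rebound.

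Of the receptors, Tie1 (chr4:118471191-118490061, minus strand) encodes a receptor tyrosine kinase that acts with the angiopoietin receptor TEK. It had 4, 15, 8, 2 and 17 counts in the Vehicle TAM libraries, 2 counts in all over the 6 Endpoint libraries, and 4, 10, 0, 42 and 32 counts at Rebound. The 88 Rebound counts came mostly from mice 49834 and 49849, and mouse 49827 had none. Eng (chr2:32646595-32682669, plus strand) encodes endoglin, a co-receptor for BMP9 and TGF-beta family ligands. Its TAM level was 67.8, 46.9, 19.5, 10.2 and 27.4 CPM in Vehicle, 20.2 to 31.2 CPM with a median of 24.6 at Endpoint, and 15.1, 20.6, 15.9, 13.3 and 15.9 CPM at Rebound. Vehicle was the most variable group, and Rebound lay at the low end of it. The log2 fold change was -0.46 ± 0.329 for Endpoint against Vehicle and -0.63 ± 0.335 for Rebound against Endpoint, so Eng did not have the higher Rebound value that the choice of the genes describes. Exons of Eng overlap exons of Fpgs on the opposite strand, and the SMART-Seq kit named in the labels does not keep strand, so reads of the overlap cannot be assigned to 1 of the genes.

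Emcn, Ly6c1 and Slco1a4 encode surface proteins. Emcn (chr3:137341067-137432185, plus strand), which encodes the sialomucin endomucin of veins and capillaries, was close to absent from TAM, with 6 counts in all in Vehicle, 10 counts at Endpoint (all in mouse 49823) and 18 at Rebound. Ly6c1 (chr15:75044018-75048830, minus strand), a GPI-anchored protein abundant on brain endothelium, had 0.666, 0.355, 0.0718, 0.142 and 0.214 CPM in Vehicle, 0 to 1.299 CPM with a median of 0.157 at Endpoint, and 3.18, 2.46, 0, 0.773 and 1.11 CPM at Rebound. Endpoint and Vehicle overlapped throughout, and 4 of 5 Rebound libraries were above the Vehicle range. Slco1a4 (chr6:141805440-141856199, minus strand), an organic anion transporter of the blood-brain barrier, had 0.154, 0.0444, 0.251, 0 and 0.772 CPM in Vehicle and 0 to 0.945 CPM at Endpoint. At Rebound it had 2.63, 2.00, 0.825, 3.35 and 1.11 CPM. Every Rebound library was above every Vehicle library, the only gene of the 10 with that separation (4.15% of the genes tested), by a log2 fold change of 2.99 ± 1.09. That fold change was 4.05 without Vehicle mouse 64247. Endpoint and Vehicle did not separate (-0.10 ± 1.06), and without Endpoint mouse 49823, whose 16 counts were most of the 22 in the group, the value was -1.55. The 8 ependymal and choroid plexus markers summed to 2.13 to 5.06 CPM in Vehicle TAM, 50.4 to 129 CPM at Endpoint and 425, 223, 111, 35.4 and 2.00 CPM at Rebound. The 10 tumour cell markers summed to 35.1 to 75.2, 34.1 to 62.9 and 44.8 to 281 CPM. The part of these cells in the Slco1a4 level in TAM was not tested.

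Ly6c1 needs a caution because of its neighbour Ly6c2 (chr15:75108158-75111970, minus strand), a marker of monocytes and of some T cells. The coding sequences of Ly6c1-201 (chr15:75045402-75048511) and Ly6c2-201 (chr15:75108543-75111667), spliced from GENCODE transcripts on GRCm38 and read 5′ to 3′ on the minus strand, are printed over their first 270 of 396 bases to show how little separates them. Capitals mark the 7 positions of this stretch at which they differ, of 9 in all.
Ly6c1: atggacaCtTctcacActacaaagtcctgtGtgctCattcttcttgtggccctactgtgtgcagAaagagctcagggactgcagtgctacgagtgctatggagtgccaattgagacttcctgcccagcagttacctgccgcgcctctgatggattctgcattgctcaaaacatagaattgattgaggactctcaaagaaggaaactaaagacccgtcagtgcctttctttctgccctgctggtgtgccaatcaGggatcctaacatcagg
Ly6c2: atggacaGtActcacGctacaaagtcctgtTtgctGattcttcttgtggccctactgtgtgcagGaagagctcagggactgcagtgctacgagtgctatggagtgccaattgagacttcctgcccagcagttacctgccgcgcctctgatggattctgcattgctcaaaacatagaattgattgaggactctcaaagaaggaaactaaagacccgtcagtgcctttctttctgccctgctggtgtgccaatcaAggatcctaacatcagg
The coding sequences are 97.7% identical, with an identical run of 188 bases. Of the 347 windows of 50 bases (the read length) in the Ly6c1 coding sequence, 162, or 46.7%, occur in a Ly6c2 transcript. How the authors' counting treated reads that match both genes is not given in the sources used here, so Ly6c1 values are uncertain where Ly6c2 is high.

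Vwf (chr6:125546774-125686679, plus strand) encodes von Willebrand factor, which endothelial cells store and secrete to tether platelets. Its TAM level was 8.40, 1.73, 1.01, 1.17 and 3.13 CPM in Vehicle, 0.216 to 1.14 CPM with a median of 0.552 at Endpoint, and 4.93, 7.27, 1.65, 5.54 and 3.996 CPM at Rebound. Every Rebound library was above every Endpoint library, by a log2 fold change of 2.89 ± 0.625, and Vehicle overlapped both. The 10 platelet and megakaryocyte markers summed to 7.79 to 21.5 CPM over all 16 TAM libraries, with overlapping ranges in the 3 stages, and Gp5 was at 0 in all Endpoint and Rebound libraries.

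Markers of other vessel-associated cells differed between the TAM groups along with these genes. The 12 pericyte and smooth muscle markers summed to 32.4 to 74.1 CPM in Vehicle, 15.5 to 26.0 CPM at Endpoint, where Rgs5 and Higd1b were at 0, and 25.0 to 145 CPM at Rebound. The 8 fibroblast and meningeal markers summed to at most 5.92 CPM in Vehicle and 4.04 CPM at Endpoint, and to 43.4 to 102 CPM in 4 of 5 Rebound libraries. Mouse 49827 had the lowest value of the Rebound group in both sums (25.0 and 1.38 CPM). It also had the lowest sum of the 10 monocyte markers in that group, 242 CPM, where Vehicle had 522 to 3330 CPM and Endpoint 82.1 to 346 CPM. The part of these cells in the levels of the 10 genes was not tested.

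Across the 16 TAM libraries the genes followed each other unevenly. Over the 45 pairs, Pearson's r of log2 levels ranged from -0.61 to 0.86 with a median of 0.45, as a description over libraries that share their stage and depth. The closest pair was Cldn5 with Esam (0.86), followed by Cldn5 with Ly6c1 (0.785), Cldn5 with Tie1 (0.776) and Esam with Tie1 (0.769). The 9 pairs that include Eng had a median of -0.12. The summed level of Cldn5, Tie1 and Esam was 0.395 to 2.93 CPM in Vehicle, 0 to 0.591 CPM at Endpoint and 4.83, 5.40, 0.275, 10.7 and 5.88 CPM at Rebound, where mouse 49827 was the lowest and mouse 49834 the highest. Ranked by r with the mean standardised pattern of the 10 genes, the closest of 12198 other genes with a mean of at least 1 CPM in TAM were Tnc (0.973), Nid1 (0.943), Col4a1 (0.927), Tm4sf1 (0.916), Aldh1a2 (0.912) and Col3a1 (0.908). These include genes of extracellular matrix and basement membrane, and the only listed endothelial gene among the first 12 was Eltd1 (0.907).

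The TC libraries of the same mice give values that the choice of the genes did not use. Set beside TAM, whose values chose the genes, the summed level of all 10 was higher in TC in 11 of the 15 mice with both sorts. It was higher in TAM in the other 4: Vehicle mice 54359 (104 CPM in TAM and 22.9 in TC) and 57682 (50.9 and 36.9) and Rebound mice 49059 (74.8 and 33.0) and 49849 (44.6 and 35.1). Without Pecam1 and Eng, the genes with the highest levels in Vehicle TAM, the sum of the other 8 was higher in TC in all 15 mice (5 Vehicle, 6 Endpoint and 4 Rebound). The scaling is separate for each sort, and the comparisons of sums between sorts in this paragraph depend on it. In the joint scaling of all 32 libraries, levels were higher in TAM and lower in TC. The Rebound mean of F11r in TAM went from 588 to 702 CPM, and that of Cav1 in TC from 103 to 83.9 CPM. The sums were not taken on that scale, where mice with a small gap could change order. For these 8 genes the gap was smallest in Rebound mice 49059 (20.3 CPM in TAM and 24.4 in TC) and 49849 (14.99 and 23.6). It was largest in Endpoint mouse 49845 (0.973 and 280 CPM), where Slco1a4 alone was 262 CPM in TC. The summed level of Cldn5, Tie1 and Esam was higher in TAM in Endpoint mouse 49823 (0.591 CPM in TAM and 0.371 in TC). The same held in Rebound mice 49059 (5.40 and 5.31) and 49849 (5.88 and 4.63). In the other mice with both sorts that sum was higher in TC. In a joint fit of all 32 libraries, where differences between sorts are given as a description, Eng was higher in TAM than in TC at every stage (log2 3.49 ± 0.853, 2.67 ± 0.761 and 1.27 ± 0.786 in Vehicle, Endpoint and Rebound). Pecam1 was higher in TAM in Vehicle (2.53 ± 1.04) and Rebound (1.97 ± 1.02) and lower at Endpoint (-3.34 ± 0.995). For Slco1a4 the difference was -3.39 ± 1.17, -8.10 ± 1.29 and -1.03 ± 1.03, and for Cldn5 it was -3.76 ± 1.20, -4.91 ± 1.20 and 0.61 ± 1.07, so both had their smallest difference between sorts at Rebound.

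**Figure D2:**
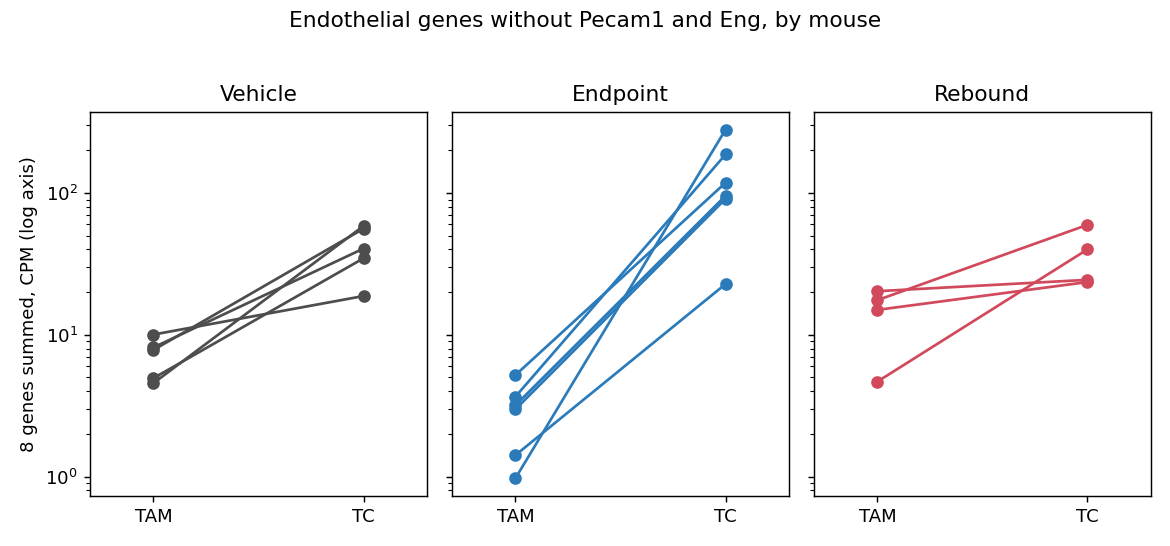
Summed CPM of the 8 genes other than Pecam1 and Eng (y axis, log scale) in the TAM and TC libraries of each mouse, joined by a line, for Vehicle, Endpoint and Rebound. For these 8 genes all 15 lines go up from TAM to TC (with Pecam1 and Eng added the sum is higher in TC in 11 of 15). CPM are scaled within each sort, and these counts depend on that scaling. They rise most steeply at Endpoint (0.973 to 280 CPM in mouse 49845) and least at Rebound (20.3 to 24.4 CPM in mouse 49059). Of the 280 CPM in TC of mouse 49845, Slco1a4 is 262 CPM.

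In TC, Endpoint against Vehicle, 2 of the 10 genes changed, both upward, against 28.7% of the 14985 genes tested. They were Cdh5 and Slco1a4, and for both genes every Endpoint library was above every Vehicle library, as for 6.66% of all genes tested. The median log2 fold change of the 10 genes was 0.53 and that of all genes tested was 0.03. With the mouse as a block in a joint fit of both sorts, 4 of the 10 genes passed (limma-voom): Cdh5, Slco1a4, Emcn and, downward, Vwf. That fit also changes the method and takes its spread from the TAM libraries as well, whose values chose the genes. Its calls here and below are therefore not free of that choice. Their difference from the main fit cannot be credited to the block alone.

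Cdh5 was 0.589, 1.36, 3.21, 0.671 and 0.167 CPM in Vehicle TC, 5.30 to 25.7 CPM with a median of 6.77 at Endpoint, and 13.0, 6.49, 4.80, 4.59 and 1.61 CPM at Rebound. Of the Rebound libraries, only that of mouse 49849 lay inside the Vehicle range. Cdh5 rose by log2 3.18 ± 0.761 from Vehicle to Endpoint (edgeR adjusted p = 0.00698), with adjusted p between 2.82e-05 and 0.16 over 17 alternatives. It passed in all of them but 1: without the 5 TC libraries with T and NK markers, which leaves 2 Endpoint libraries, the value was 2.27 and the adjusted p 0.16. Rebound against Vehicle was 2.33 ± 0.749 with an adjusted p of 0.194, which DESeq2 (0.0308) and the fit with mouse as a block (0.0285) called.

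Slco1a4 was 0.131, 5.35, 8.55, 0.552 and 4.94 CPM in Vehicle TC and 106, 101, 29.6, 44.6, 14.8 and 262 CPM in Endpoint mice 49823, 49825, 49830, 49831, 49843 and 49845. At Rebound it was 11.6, 0.118, 0.534, 16.2 and 1.61 CPM. Every Endpoint library was above all Vehicle libraries, and only the lowest of them lay below a Rebound library (mouse 49827). It rose by log2 4.57 ± 1.26 from Vehicle to Endpoint (edgeR adjusted p = 0.0156, below the threshold in all 17 alternatives, 2.36e-05 to 0.0464). From Endpoint to Rebound it fell by 3.97 ± 1.23 on the log2 scale (adjusted p = 0.0279), a call that was lost without Endpoint mouse 49845 (0.0575) or without Rebound mice 49059 (0.0507), 49692 (0.0618) or 49849 (0.069). Per kilobase of exon, Slco1a4 had the highest mean of the 10 genes in Endpoint TC, 14.5 CPM per kilobase, and it made up 27.6 to 92.6% of their summed level there.

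The 8 ependymal and choroid plexus markers, among them Ttr and Kcnj13, were followed as a sum and not gene by gene. Like Slco1a4, the sum of these markers had its highest group median in TC at Endpoint. They summed to 10.8 to 617 CPM in Vehicle TC, 6445 to 219000 CPM at Endpoint and 2.03 to 1174 CPM at Rebound, with all 8 detected in each group. In Endpoint mice 49843, 49830, 49831, 49825, 49823 and 49845 the sum was 6445, 24590, 25910, 43190, 76430 and 219000 CPM, and Slco1a4 put these 6 libraries in the same order. The part of choroid plexus or ependymal RNA in the Slco1a4 level was not tested. Slco1a5, a neighbouring transporter gene that shares 5.1% of the 50-base windows of the Slco1a4 coding sequence, also reached 18.2, 7.19 and 20.3 CPM in Endpoint mice 49823, 49825 and 49845 and was at most 0.785 CPM in the Vehicle and Rebound libraries.

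**Figure D3:**
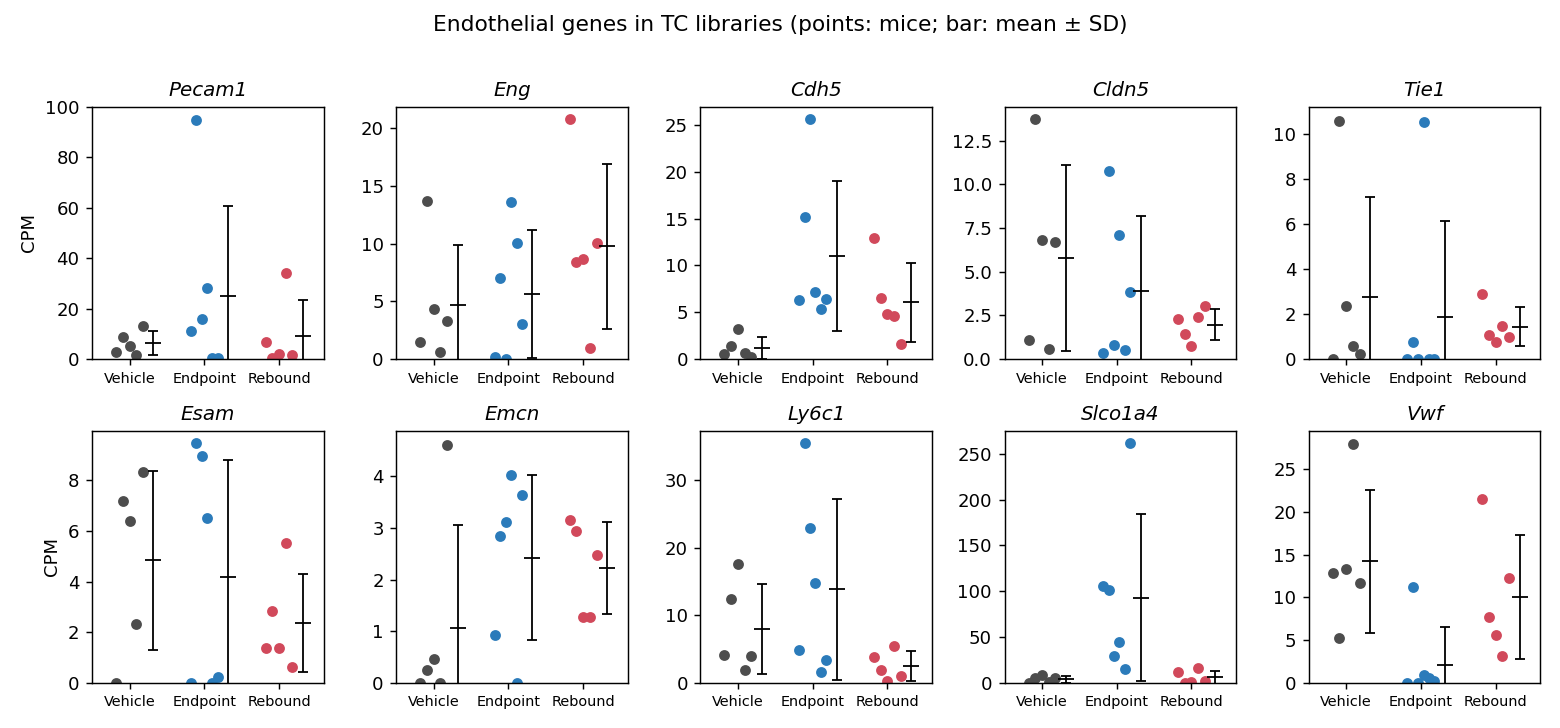
CPM of each of the 10 genes in TC (y axis, 1 panel per gene with its own scale) in Vehicle, Endpoint and Rebound (x axis). Points are mice and bars give the mean ± SD with the lower end cut at 0. Cdh5 (5.30 to 25.7 CPM) and Slco1a4 (14.8 to 262 CPM) lie above every Vehicle library at Endpoint, while Vwf is under 1 CPM in all Endpoint libraries but 1 (11.2 CPM).

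Vwf took the other direction in TC without passing the test. It was 12.9, 5.27, 13.3, 28.0 and 11.7 CPM in Vehicle, 0, 11.2, 0, 0.928, 0.530 and 0.214 CPM at Endpoint, and 21.5, 7.67, 5.55, 3.12 and 12.3 CPM at Rebound. In 5 of 6 Endpoint libraries it was below every Vehicle and Rebound library, and mouse 49825 was the exception. The log2 fold change of Endpoint against Vehicle was -2.68 ± 1.08 (edgeR adjusted p = 0.0707). It was -5.46 with an adjusted p of 0.0024 without mouse 49825, -5.40 (0.0132) without the T and NK marked libraries, and -4.90 (7.73e-05) with mouse as a block. For Rebound against Endpoint it was 2.18 with an adjusted p of 0.139, and 4.96 (0.00366) without mouse 49825.

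The median levels of Pecam1 and Ly6c1 in TC were higher in the T and NK marked libraries than in the others, with ranges that overlapped. Pecam1 was 2.62, 8.87, 5.30, 1.62 and 13.2 CPM in Vehicle, 0.214 to 94.8 CPM with a median of 13.5 at Endpoint, and 6.92, 0.236, 1.92, 34.1 and 1.51 CPM at Rebound. Its median was 28.2 CPM (11.1 to 94.8) in the 5 T and NK marked libraries and 1.92 CPM (0.214 to 13.2) in the other 11. The log2 fold change of Endpoint against Vehicle was 2.00 ± 1.27 (adjusted p = 0.255), and -4.18 (adjusted p = 0.103) without those libraries. Ly6c1 was 4.06, 12.4, 17.5, 1.97 and 3.94 CPM in Vehicle, 1.59 to 35.6 CPM at Endpoint and 3.90, 1.89, 0.213, 5.51 and 0.968 CPM at Rebound. Its fold change of Endpoint against Vehicle was 0.80 ± 0.842 (adjusted p = 0.503), and -1.65 without those libraries. The Ly6c1 median was 14.8 CPM (4.82 to 35.6) in the 5 libraries and 3.43 CPM (0.213 to 17.5) in the other 11. In the same split Slco1a4 had medians of 44.6 CPM (16.2 to 106) and 4.94 CPM (0.118 to 262), and Esam 6.50 CPM (0 to 9.46) and 1.39 CPM (0 to 8.33). Medians were also higher in the marked libraries for Cdh5 (7.12 and 3.21 CPM) and Emcn (2.84 and 1.28 CPM). They were lower there for Eng (0.918 and 8.38 CPM) and Vwf (0.928 and 11.7 CPM). All marked libraries but that of Rebound mouse 49827 were Endpoint libraries, so the split is partly one of stage.

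The paralog Ly6c2 separated the libraries fully by their T and NK markers. It was 138, 241, 287 and 324 CPM in the 4 Endpoint TC libraries with T and NK markers, 142 CPM in Rebound mouse 49827, and at most 1.16 CPM in the other 11 TC libraries. Ly6c2 rose by log2 8.40 ± 2.47 from Vehicle to Endpoint (edgeR adjusted p = 0.0207), with a value of -0.37 (0.911) without those 5 libraries and an adjusted p of 0.0613 with mouse as a block. Ly6c1 itself was 2.48 ± 0.90 lower on the log2 scale at Rebound than at Endpoint (log2 -2.48, adjusted p = 0.0526). It passed the test in 7 of 17 alternatives, among them DESeq2 (0.00881), mouse as a block (0.0327) and leaving out Endpoint mouse 49843 (0.0275) or 49845 (0.0438) or Rebound mouse 49827 (0.0251). Without all 5 T and NK marked libraries the value was -0.54 (0.758). The part of T and NK cell RNA in the Pecam1 and Ly6c1 levels was not tested.

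**Figure D4:**
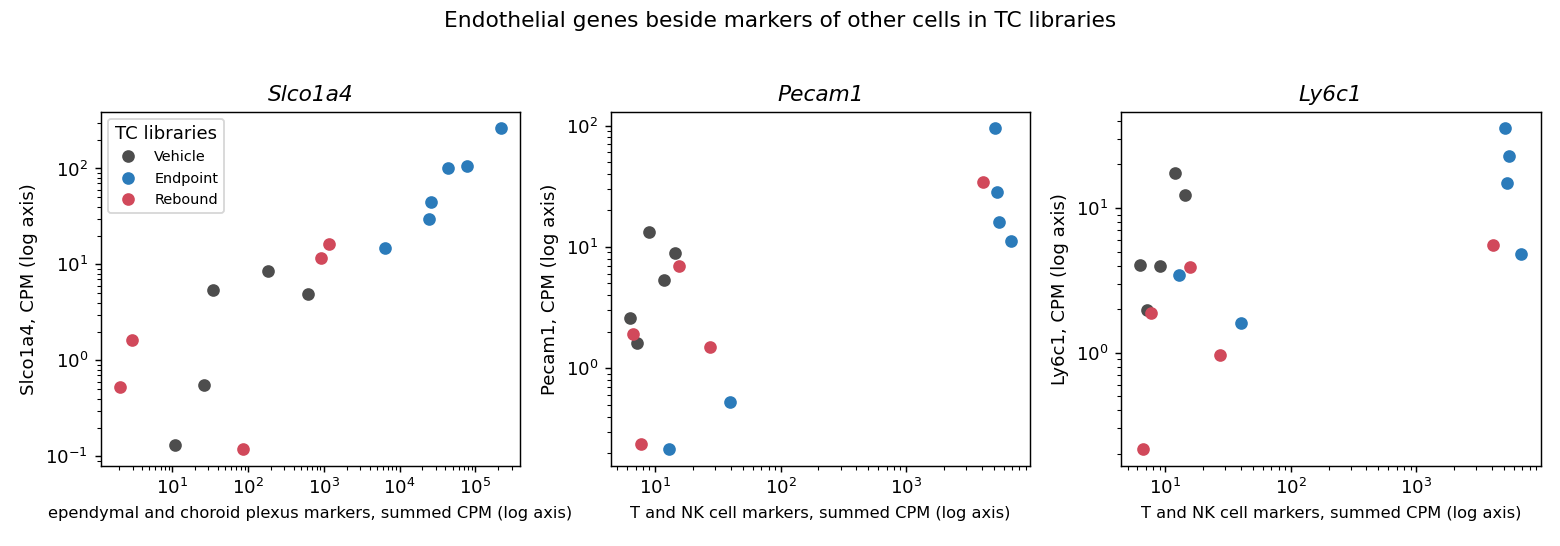
TC libraries by markers of other cells, each point 1 of 16 mice coloured by stage, on log axes. Slco1a4 is plotted in CPM against the summed CPM of the ependymal and choroid plexus markers, and Pecam1 and Ly6c1 against that of the T and NK markers. Slco1a4 is highest (262 CPM) in the library with 219000 CPM of choroid markers, and the 5 libraries at 4072 to 6891 CPM of T and NK markers hold 11.1 to 94.8 CPM of Pecam1.

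The other 5 genes did not pass in TC at Endpoint. Emcn was 0, 0.240, 0.464, 0 and 4.61 CPM in Vehicle, 0 to 4.02 CPM with a median of 2.98 at Endpoint, and 3.15, 2.95, 1.28, 1.28 and 2.48 CPM at Rebound. Its fold change of Endpoint against Vehicle was 1.19 (adjusted p = 0.485). Without Vehicle mouse 64247, the 1 Vehicle library above 0.464 CPM, it was 3.70 (0.0442), and with mouse as a block 3.04 (0.0266). Eng (0.27, adjusted p = 0.869), Cldn5 (-0.55, 0.675), Tie1 (-0.54, 0.819) and Esam (-0.21, 0.916) had wide ranges in every stage. Tie1, for example, was 10.5 CPM in Vehicle mouse 54363 and in Endpoint mouse 49831, and at 0 in 4 of 6 Endpoint libraries.

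For Rebound against Vehicle in TC, 0 of the 10 genes passed (edgeR), against 0.0734% of all genes tested, and 1 (Cdh5) had an unadjusted p under 0.05. DESeq2 called 1 and the fit with mouse as a block called 2 (Cdh5 and Emcn). For Rebound against Endpoint 1 of 10 passed, Slco1a4, against 25.1% of genes. The median log2 fold change of the 10 genes was -0.84 for Rebound against Endpoint, where that of all genes was -0.04, and -0.005 for Rebound against Vehicle, where it was 0.04. None of the 10 genes separated Rebound from the other stages in TC without overlap. Among all genes tested, 1.84% lay higher and 2.72% lower in every Rebound than in every Vehicle library, and 6.84% and 6.15% did so against Endpoint.

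**Figure D5:**
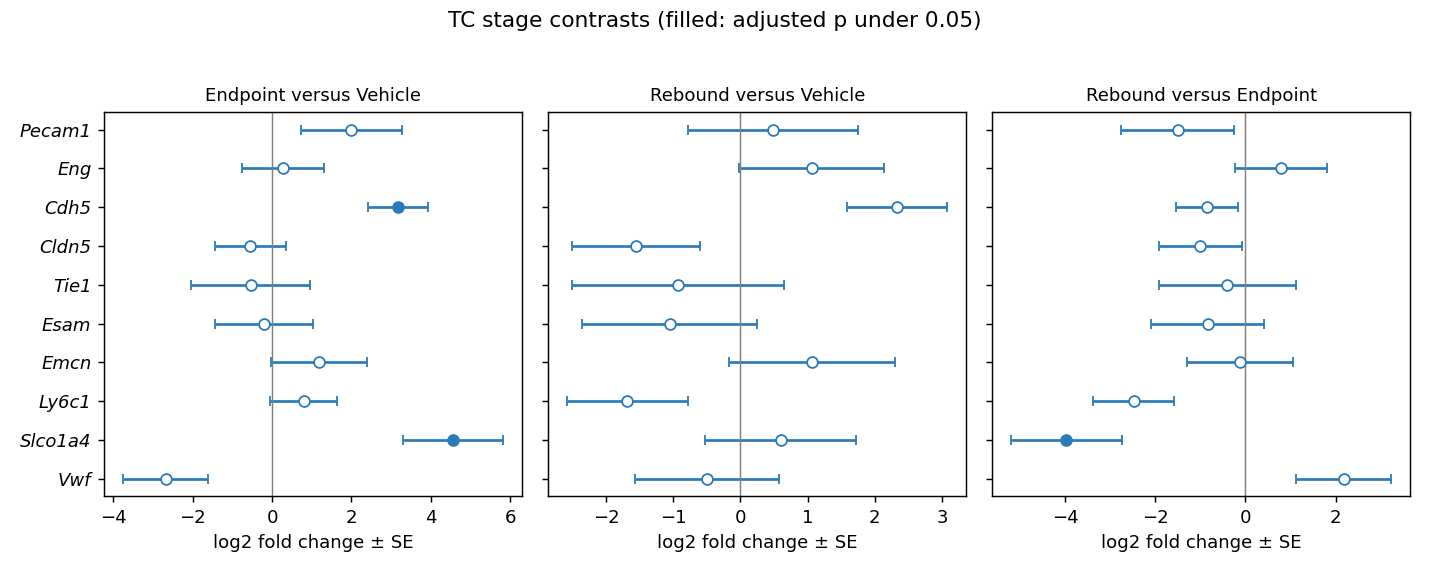
Log2 fold change ± SE of the 10 genes in TC (x axis) for Endpoint against Vehicle, Rebound against Vehicle and Rebound against Endpoint, with filled points where the edgeR adjusted p is under 0.05. Cdh5 (3.18) and Slco1a4 (4.57) are filled for Endpoint against Vehicle and Slco1a4 (-3.97) for Rebound against Endpoint.

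A wider list of 83 other endothelial genes, all in the table, was then tested in both sorts. In TC, 66 passed the count filter, and 25 of them changed from Vehicle to Endpoint, 17 upward and 8 downward, against 28.7% of all genes. The count was 15 without Vehicle mouse 57682, 9 of 73 without the 5 T and NK marked libraries and 41 of 75 with mouse as a block. Over all genes the calls went from 4305 to 3217, 1124 and 6395 in the same fits. In the main fit blood-brain barrier genes had the largest share, 9 of 15 (7 up, 2 down, median log2 3.04). Junction and adhesion genes followed with 9 of 18 (4 up, 5 down). Of arterial, venous and tip cell genes 4 of 13 changed, all upward, of receptors 2 of 11 and of transcription factors 1 of 9. Shares by list were not counted in the alternatives, so none is known without the T and NK marked libraries. The median over the 66 genes was 0.68, and that of all genes 0.03.

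Named genes that passed in every alternative include transporters and junction genes that epithelia also use. Slco1c1, a thyroid hormone transporter, was 4.84 to 39.8 CPM in Vehicle TC (median 5.50) and 31.3 to 1327 CPM at Endpoint (median 223), a rise of log2 4.80 ± 1.34 (edgeR adjusted p = 0.0163). Slc22a8, an organic anion transporter, went from a median of 1.92 CPM to 38.6 CPM (log2 4.62 ± 0.86, adjusted p = 0.00183). Ocln, which encodes the tight junction protein occludin, went from a median of 1.37 to 35.0 CPM (log2 4.91 ± 1.06, adjusted p = 0.00432). Slco1c1 and Slc22a8 are also known transporters of the choroid plexus epithelium. Nid2, a basement membrane gene, rose by log2 4.23 (adjusted p = 0.01). Plvap, which forms the diaphragms of fenestrated vessels and is low in barrier endothelium, fell by 2.78 ± 0.55 on the log2 scale (adjusted p = 0.00245), from 10.2 to 37.9 CPM in Vehicle to 0.389 to 5.57 CPM at Endpoint, with no overlap.

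From Endpoint to Rebound in TC, 19 of the 66 changed, 9 upward and 10 downward, against 25.1% of all genes. The count was 30 of 71 without Rebound mouse 49827, the Rebound library with T and NK markers, and 39 of 75 with mouse as a block. Over all genes the calls went from 3758 to 5618 and 6643 in the same fits. Those that passed in every alternative were Plvap (log2 2.83, adjusted p = 0.00261), the adrenomedullin receptor gene Calcrl (2.6, 0.00479), the junction gene Jam2 (2.23, 0.00116) and the amino acid transporter gene Slc7a5 (2.04, 0.00265) upward. Downward they were Ocln (-5.95, 0.00248), Slco1c1 (-5.22, 0.0133) and F11r, which encodes the junction protein JAM-A (-4.49, 0.00323). Plvap was 11.96 to 38.7 CPM at Rebound, above every Endpoint library. Jam2 was 32.6 to 76.9 CPM at Endpoint and 84.8 to 276 CPM at Rebound. For Rebound against Vehicle 0 of 66 passed (edgeR), 14 had an unadjusted p under 0.05, and DESeq2 called 5, the fit with mouse as a block 6 and the fit without the T and NK marked libraries 3. Without Rebound mouse 49827 alone the count was 4.

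In TAM, 54 of the 83 passed the filter, and 14 changed from Vehicle to Endpoint, 5 upward and 9 downward, against 33% of the genes tested. The median log2 fold change was -0.17, and -0.03 over all genes. The count was 8 without Vehicle mouse 57682 and 7 with mouse as a block. Ecscr, which encodes a surface protein known from endothelial cells, fell by 5.64 ± 0.664 on the log2 scale (edgeR adjusted p = 2.67e-05). It was 84.0 to 206 CPM in Vehicle TAM (median 169), 0.505 to 10.9 CPM at Endpoint (median 1.70) and 7.27 to 40.3 CPM at Rebound. Of these 3 ranges only the last 2 overlap. In Vehicle TC Ecscr was 1.97 to 11.1 CPM, and in Vehicle TAM Cdh5 was at most 3.02 CPM. Which cells carried Ecscr in TAM was not tested. Klf2, a transcription factor of flow-exposed endothelium and also of leukocytes, fell by 3.27 ± 0.671 (adjusted p = 0.00119), from a median of 4.60 to 0.477 CPM. Eltd1, an adhesion G protein-coupled receptor of vessels, fell by 3.16 ± 0.979 (adjusted p = 0.0183), with 4 of 6 Endpoint libraries at 0.

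From Vehicle to Rebound in TAM, 10 of 54 changed, 6 upward and 4 downward, against 14.7% of genes, and the count was 3 without Rebound mice 49041 and 49059 and also 3 with mouse as a block. Flt1, which encodes the VEGF receptor VEGFR1 and is also active in macrophages, rose by log2 3.58 ± 0.468 (adjusted p = 0.000271). Its 5 Rebound libraries had 15.3 to 57.2 CPM, where Vehicle had 0.600 to 5.89 and Endpoint 1.87 to 3.93 CPM. Ecscr was lower at Rebound than in Vehicle (-2.99 ± 0.624, adjusted p = 0.00652). From Endpoint to Rebound 16 of 54 changed, 13 upward and 3 downward, against 17.6% of genes, with 10 without mice 49041 and 49059 and 6 with mouse as a block. Flt1 (log2 3.81, adjusted p = 3.8e-05), Eltd1 (4.62, 0.00398), Pglyrp1 (4.53, 0.00341) and Thbd, which encodes thrombomodulin (4.17, 0.00568), rose, and the ephrin gene Efnb2 fell by 2.3 on the log2 scale (0.00545). Thbd was 0 to 0.852 CPM at Endpoint and 1.79 to 10.3 CPM at Rebound.

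Between the sorts, many of the wider list differed at each stage, at rates close to those of all genes. Which cells carried these genes in either sort was not tested. In Vehicle 46 of 75 differed (18 higher in TAM, 28 lower) against 54.8% of genes, at Endpoint 46 (10 higher, 36 lower) against 51.1%, and at Rebound 42 (16 higher, 26 lower) against 47.8%. In Vehicle the iron exporter gene Slc40a1 (log2 5.96), Acvrl1 (5.78), Cd34 (5.77), F11r (5.6) and Ecscr (5.37) were higher in TAM, while Mfsd2a (-7.14), Clec14a (-6.15), Mcam (-5.72), Cav1 (-5.57) and Nr2f2 (-5.52) were lower. At Endpoint Slc40a1 (3.94), Cd34 (3.45), F11r (3.45), Acvrl1 (3.25) and Hhex (3.09) were higher in TAM, and Thbd (-7.91), Slco1c1 (-7.69), Abcb1a (-7.42) and Itm2a (-6.83) were lower. At Rebound F11r (7.17), Hhex (5.35), Pglyrp1 (5.3) and Lmo2 (5.13) were higher in TAM, and Spock2 (-5.62), Cav1 (-5.12) and Mcam (-4.79) were lower. The change from Vehicle to Endpoint differed between TAM and TC for 22 of 75 genes (4 toward higher values in TAM, 18 toward lower), against 25.7% of all genes, with 14 without the T and NK marked libraries. From Endpoint to Rebound it differed for 24 of 75 (19 and 5), against 20.6%, and the count was 37 without TC Rebound mouse 49827. From Vehicle to Rebound it differed for 1 of 75, Nid2 (-5.66, edgeR adjusted p = 0.018), against 0.517% of genes, and for 7 without that TC library.

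For the 10 genes the same differences between sorts are a description. From Vehicle to Endpoint, TAM minus TC was -5.87 ± 1.44 for Pecam1 (fold changes of -3.77 in TAM and 2.00 in TC). It was -4.71 ± 1.62 for Slco1a4 (-0.10 and 4.57) and -3.94 ± 0.924 for Cdh5 (-0.67 and 3.18). From Endpoint to Rebound it was 7.06 ± 1.58 for Slco1a4 (3.09 and -3.97), 5.53 ± 1.60 for Cldn5, 5.31 ± 1.43 for Pecam1, 4.97 ± 1.73 for Esam and 4.63 ± 1.44 for Ly6c1. Tie1 and Emcn, which did not pass the count filter in TAM and had 2 and 10 counts in all of Endpoint TAM, are given no difference. Counts there were also low for Cldn5 (8), Esam (12), Slco1a4 (22) and Ly6c1 (32). The differences of these genes therefore rest on Endpoint TAM values near the detection limit. For Vwf the differences were 0.28 ± 1.31 and 0.75 ± 1.26, each smaller than its SE, and Vwf had its lowest group median at Endpoint in both sorts.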

How the data were processed

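RNA of 16 TAM and 16 TC libraries was prepared with the SMART-Seq kit and sequenced as 2 reads of 50 bases, per the labels' protocols. The deposited table holds counts per gene, made by the authors from STAR 2.3.0e alignments to mm10 with SAMtools also named, per the submitters' processing notes; the counting program, its annotation and its strand setting are not stated there or in the labels. Of 23337 genes, 1715 were at 0 in every library. The 10 genes and all lists were chosen with earlier results of these data known. Replicates are different mice, and each of 15 mice gave both sorts, which is where the pairing comes from: deviations of the paired libraries correlated by 0.01 to 0.34 (median 0.07), and 5 of 15 pairs were over 0.1.

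Counts were filtered with filterByExpr, scaled by TMM and tested with edgeR 4.0.16 (robust quasi-likelihood, R 4.3.3) in separate fits of 16 libraries for TC (14985 genes) and TAM (13315 genes) and in a joint fit of all 32 (15668 genes). Adjusted p is Benjamini-Hochberg over all genes tested, with a threshold of 0.05. In TAM 8 of the 10 genes passed the filter (not Tie1 and Emcn), and in TC all 10. Levels are CPM on TMM-scaled totals, and correlations use log2 CPM with a prior count of 2. From the wider lists the text names, per comparison and direction, up to 6 called genes with the largest fold change, and gives values for those of them that kept their call in every alternative; between sorts, genes with a group mean under 0.1 CPM are left out. Alternatives were size factor scaling, no filter, DESeq2 1.42.0, halved Endpoint and Rebound counts, each library left out, the mouse as a block (limma 3.58.1, voom) and, chosen after seeing the data, leaving out the libraries with T and NK markers (over 1000 CPM in TC, over 100 CPM in TAM). On simulated TC data of 14688 genes, 98 were changed by a log2 of 2 and 97 by 3. The test recovered 45.9% and 67% of them, and 78% and 86.6% on simulated TAM data. In TC 28.7% of genes were called for Endpoint against Vehicle, a far larger share than was changed here. These rates need not hold for the real data.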

Additional observations from a re-analysis of the deposited data

Results flagged for a closer look

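In 4 of 60 combinations of the 10 genes, sort and stage, 1 library stood far from the others of its group in TAM. For values away from 0 such a gap appears by chance in about 1 group in 20. That rate does not apply to Tie1 and Emcn below, where 1 library above 0 and 5 at 0 always give the largest gap. Cdh5 was 0.256 CPM in Vehicle mouse 54359 and 2.19 to 3.02 CPM in the other 4 Vehicle libraries. Cldn5 was at 0 in Rebound mouse 49827 and 1.75 to 3.35 CPM in the other 4. Tie1 was 0.108 CPM in Endpoint mouse 49845, from 2 counts, and 0 in the other 5. Emcn was 0.591 CPM in Endpoint mouse 49823, from 10 counts, and 0 in the other 5.

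Among the 75 other endothelial genes tested in the joint fit, the change between stages differed between TAM and TC (edgeR interaction, adjusted p under 0.05) for 22 from Vehicle to Endpoint, for 1 from Vehicle to Rebound and for 24 from Endpoint to Rebound. From Vehicle to Endpoint, TAM minus TC was 3.03 for Calcrl and 2.14 for Slc7a5 on the log2 scale, and -6.48 for Thbd and -6.38 for Pglyrp1. From Endpoint to Rebound it was 7.18 for Slco1c1 and 6.91 for Pglyrp1, and -3.44 for Slc7a5, -2.71 for Jam2 and -2.62 for Calcrl.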

How the results depend on the processing

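Depth limits the TAM values: 2 counts of Tie1 are 0.108 CPM in Endpoint mouse 49845, and 6 of the 10 genes have a median of at most 0.157 CPM in Endpoint TAM. Over all alternatives, 2516 values of tested single genes kept direction and call, 161 lost the call, 22 gained it and 45 changed sign, the cause of which was not tested; 381 of 386 described values moved by less than the replicate spread. The fit with mouse as a replicate block also differs from the main fit in method (limma-voom) and, for TC and TAM, in taking both sorts together. Its differences from the main fit cannot be credited to the block alone. Calls there among the 10 genes in TC were 4 for Endpoint against Vehicle, 2 for Rebound against Vehicle and 3 for Rebound against Endpoint. The main fit gave 2, 0 and 1. Among the other endothelial genes, calls in the block fit were 41, 6 and 39 in TC and 7, 3 and 6 in TAM. For the Rebound against Vehicle change between sorts it called 4, and it moved no other count by over 1.5 times. In the block fit the TC fold changes of Emcn (0.30), Esam (0.88) and Tie1 (2.38) for Rebound against Endpoint changed sign. So did Eng (-0.41) for Endpoint against Vehicle. For Rebound against Vehicle Pecam1 (-0.88), Slco1a4 (-0.13), Tie1 (0.98) and, in TAM, Ly6c2 (0.99) also did. Without libraries with T and NK markers the other endothelial genes gave 9 and 3 calls in TC for Endpoint and Rebound against Vehicle, 3 and 10 in TAM for Rebound against Vehicle and Endpoint, and 14 and 4 for the sort differences of Endpoint and Rebound against Vehicle, and the 10 genes gave 2 for Rebound against Endpoint. The same setting turned Cdh5 (0.15), Emcn (0.39), Esam (3.47), Pecam1 (2.92) and Tie1 (7.54) for Rebound against Endpoint, Pecam1 (-4.18), Ly6c1 (-1.65) and Ly6c2 (-0.37) for Endpoint against Vehicle, and Pecam1 (-1.25), Ly6c2 (-1.59) and Slco1a4 (-0.19) for Rebound against Vehicle. DESeq2 called 1 and 2 of the 10 genes for Rebound against Vehicle and Endpoint, 5 other genes for Rebound against Vehicle, and 5 sort differences there. Size factor scaling and halved counts each called 2 of the 10 genes for Rebound against Endpoint and 2 sort differences for Rebound against Vehicle, and Ly6c2 in TAM turned to 0.03, 0.03 (DESeq2) and 0.01. Leaving out 1 library gave 2 to 3, 0 to 0 and 0 to 2 calls among the 10 genes, and 15 to 25, 0 to 4 and 16 to 30 among the others in TC. In TAM the others gave 8 to 14, 7 to 11 and 13 to 17. Between the sorts they gave 43 to 46, 43 to 48 and 38 to 44 by stage, and 20 to 25, 1 to 7 and 20 to 37 for the differences of change. Leaving out 1 library also changed the sign, within these ranges, of Cldn5 (-1.18 to 0.04), Eng (-0.21 to 1.20), Esam (-0.63 to 0.07) and Tie1 (-3.91 to 1.22) for Endpoint against Vehicle in TC, Emcn (-0.38 to 0.07) and Tie1 (-0.82 to 2.98) for Rebound against Endpoint, and Pecam1 (-1.25 to 0.95), Slco1a4 (-0.18 to 1.13), Tie1 (-1.36 to 0.83), Ly6c2 (-1.69 to 6.55) and, in TAM, Ly6c2 (-0.82 to 0.84) for Rebound against Vehicle.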

Other observations

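Across the 16 TC libraries the genes closest to the mean standardised pattern of the 10 genes, out of 14473 with a mean of at least 1 CPM, were Lats2 (Pearson's r = 0.837), Snai2 (0.825), Zfp341 (0.795), Gpr116 (0.795) and Ltb4r1 (0.77), given as a description over libraries that share stage and depth. Gpr116 was the only listed endothelial gene among the first 12, and none of the 12 was among the first 12 in TAM. The 45 pairs of the 10 genes in TC had r from -0.63 to 0.69 with a median of 0.28.

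The 6 lymphatic endothelial markers summed to 6.87 to 13.3 CPM in Vehicle TAM, 2.99 to 10.6 CPM at Endpoint and 7.90 to 22.5 CPM at Rebound. In TC they summed to 46.4 to 60.8, 73.2 to 284 and 30.5 to 63.8 CPM. Ccl21a was at 0 in all 32 libraries.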
